A study of Mus musculus with 12 samples.

Results

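Peritoneal macrophages (PMs) transfected with antagomir-21 were compared with PMs transfected with a scramble oligonucleotide, on 8 of the 12 expression arrays of the study. The 8 arrays were chosen by their titles and fall into 4 groups: 4 arrays with antagomir-21 and 4 with scramble, in each case 2 after GFP exosomes and 2 after miR-21 exosomes. All groups received exosomes of sensory neurons, made to overexpress either miR-21 or a GFP reporter, so no group shows PMs without exosomes. The 4 other arrays are of PMs labelled lipofectamine, the transfection reagent, 2 with each kind of exosome, and are given beside the main comparison only as a further set of values. The methods name C57BL/6 mice of both sexes for the study as a whole and a wash of the peritoneal cavity as the way the cells were collected, while the labels of these arrays give neither strain, age nor sex. Such a wash also holds other cells, and in a bulk sample fewer cells of a type and less RNA per cell cannot be told apart.

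miR-21 is one of the most abundant microRNAs of activated macrophages. A microRNA guides a silencing complex to messenger RNAs that pair with its seed, and the paired messages are translated less and degraded faster. An antagomir is a chemically modified antisense strand that binds the mature microRNA and keeps it from its targets, so messages under direct control of miR-21 would be looked for among the genes that are higher after antagomir-21 than after scramble. The mature strand that antagomir-21 is directed at is shown first and the passenger strand of the same hairpin second, because the seed, in capitals (bases 2 to 8), is what a target message pairs with.
mmu-miR-21a-5p: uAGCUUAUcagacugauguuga
mmu-miR-21a-3p: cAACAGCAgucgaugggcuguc
Both sequences are of 22 bases and from RefSeq (GRCm38.p6), where they lie on the minus strand of chromosome 11, at 86584120 to 86584141 and at 86584082 to 86584103. The 5p seed is shared by 2 of the 1738 mature mouse microRNAs of that table, miR-21a-5p and miR-21c. The arrays read messenger RNA, so the level of miR-21 itself was not measured here, and the sequences of the antagomir and of the scramble oligonucleotide were not found in the text or files used.

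The deposited values are log2 signals of 45037 probe sets, reduced here to 18193 genes by keeping 1 probe set per gene, that of the highest 12-array mean. Array medians were 7.98 to 8.37 for antagomir-21 and 7.92 to 8.58 for scramble, and the SD over all genes was 2.16 to 2.48 and 2.04 to 2.37. Across genes, arrays of the same transfection were no more alike than arrays of different transfections: the mean Pearson r was 0.583 over 12 pairs with the same transfection (range 0.481 to 0.684) and 0.589 over 16 pairs with different ones (range 0.480 to 0.726). The spread was wide, in that 62.0% of genes had at least 1 of the 8 arrays below a log2 signal of 6 and at least 1 at 7 or above. Olfactory receptor genes, which PMs are not known to use, had a median signal of 6.50 (38 genes, 5th percentile 5.06 and 95th percentile 8.27), and the median gene had 7.91, so most signals under about 8 cannot be told from those of silent genes. The median SD over 12 arrays was 1.48 for all genes and 0.64 for the brightest decile.

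One array stood apart. Antagomir-21 with miR-21 exosomes replicate 2 had the lowest signals among the antagomir-21 arrays for the brightest macrophage genes. *Lyz2*, which encodes lysozyme, was at 15.87 on it and at 17.81, 17.82 and 17.99 on the other antagomir-21 arrays, against 15.81, 17.25, 16.50 and 16.80 on the scramble arrays. The macrosialin gene *Cd68* was at 12.26 on that array, and at 14.29, 14.40 and 14.39 on the others with antagomir-21. Its share of genes below a signal of 6 was 16.6%, whereas the other antagomir-21 arrays had 22.9% to 25.9%. Scramble arrays had 16.9% to 23.5%. Genes between 6 and 7 made up 4.7% to 5.9% of each antagomir-21 array and 7.8% to 9.3% of each scramble array, so the distributions of dim signals differed between the transfections without overlap. The part of this in the calls of dim genes was not tested. Values without the array that stood apart are given below for counts, some lists and some of the genes on which it was the extreme array. Without it some differences grew and others shrank. Scramble with GFP exosomes replicate 1 was lower still over 10 macrophage markers, with a mean of 10.64 against 11.15 for the array that stood apart. Differences of single genes without that scramble array enter only the ranges at the end. The omissions given with the genes are therefore one-sided.

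Macrophage genes were strongly read in both transfections and passed no test. *Csf1r*, which encodes the CSF-1 receptor of macrophages, had 16.45, 16.83, 16.98 and 15.67 with antagomir-21 and 16.99, 16.15, 15.65 and 17.79 with scramble; here and below, the first pair of values of each transfection is of GFP exosomes and the second pair of miR-21 exosomes, each in the order of the replicate numbers. *Adgre1*, which encodes F4/80, was at 13.54, 13.78, 13.64 and 11.70 with antagomir-21 and 12.13, 13.16, 12.50 and 12.92 with scramble. The mean of 10 macrophage markers spanned 11.15 to 12.22 in antagomir-21 arrays and 10.64 to 11.95 in scramble arrays. Of the other cells that a wash or the neuronal culture could hold, B cell markers (5 of 6 measured) had array means of 9.24 to 9.64 with antagomir-21 and 8.41 to 10.35 with scramble, which overlap. Markers of T and NK cells (6 measured), sensory neurons (8) and dendritic cells (6) averaged 5.52 to 7.16, 5.87 to 7.89 and 6.18 to 7.47 with antagomir-21, near the olfactory receptors at 6.19 to 6.75. With scramble they averaged 6.21 to 7.51, 6.64 to 7.30 and 6.45 to 8.20, beside olfactory receptors at 6.25 to 7.39. Mast cell markers (6) averaged 6.90 to 8.01 with antagomir-21 and 7.61 to 8.87 with scramble, eosinophil and neutrophil markers (7) 5.73 to 7.68 and 5.96 to 8.06, mesothelial and fibroblast markers (10) 6.64 to 8.21 and 7.08 to 8.72, and markers of Schwann cells and satellite glia (4) 7.83 to 8.95 and 7.76 to 9.19. The median log2 difference was −0.72 over the dendritic cell markers, −0.68 for T and NK cells, −0.64 for eosinophils and neutrophils and −0.51 for mesothelial cells and fibroblasts, and all these lists overlapped between the transfections. For mast cells it was −0.945, and for the olfactory receptors −0.25.

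The question of the main comparison is which genes move with antagomir-21 whichever exosome the PMs received. limma was fitted to the 8 arrays with exosome type as an additive term. No gene passed an adjusted p under 0.05 (0% of 18193 genes; the lowest adjusted p was 0.586). The methods set a threshold of 0.05 without naming an adjustment, and 834 genes passed it unadjusted (4.58%), against the 5% that would pass if no gene differed. Of these, 264 were higher (1.45%) and 570 lower (3.13%) with antagomir-21. After quantile normalization the count was 806, with 352 higher and 454 lower, so the share of higher genes among those called was 43.7% instead of 31.7%. The lists of both scalings had 678 genes in common.

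Another view of the same arrays counts genes whose 4 antagomir-21 arrays all lay on one side of the 4 scramble arrays. There were 139 such genes higher with antagomir-21 (0.764%) and 219 lower (1.2%). The share that would separate if no gene differed was not computed, so these counts are a description and do not show a difference. Of these 358 genes, 122 had a signal above that of the median gene, 58 of them higher and 64 lower. The call at an unadjusted p depended on single arrays: with replicate 2 of antagomir-21 and miR-21 exosomes left out, 912 genes instead of 570 were lower, and with replicate 1 of scramble and GFP exosomes left out 379. Counts of higher genes in these fits were 302 and 298. No gene passed an adjusted p under 0.05 in limma's fit without either array.

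Genes at an unadjusted p under 0.05 in this fit were mostly dim ones. In the dimmest quartile of genes, 411 of 4549 passed (110 higher and 301 lower), or 9.04%, and in the next quartile 329 of 4548, or 7.23%. The share was 1.96% in the quartile above, and 5 genes, all higher with antagomir-21, passed in the brightest quartile (0.11%). Genes below the median signal made up 88.7% of the calls. Their median residual SD was 1.78 log2 units, against 0.91 for genes above the median. limma drew the spread of every gene toward 1 common value, whatever its signal, so these shares hold for that setting. With an intensity trend in the fit, 721 genes passed, 318 higher and 403 lower (44.1% higher). The plot of calls by signal shows the slope of the main fit, and that its excess of lower over higher calls lies among the dim genes.

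**Figure D1:**
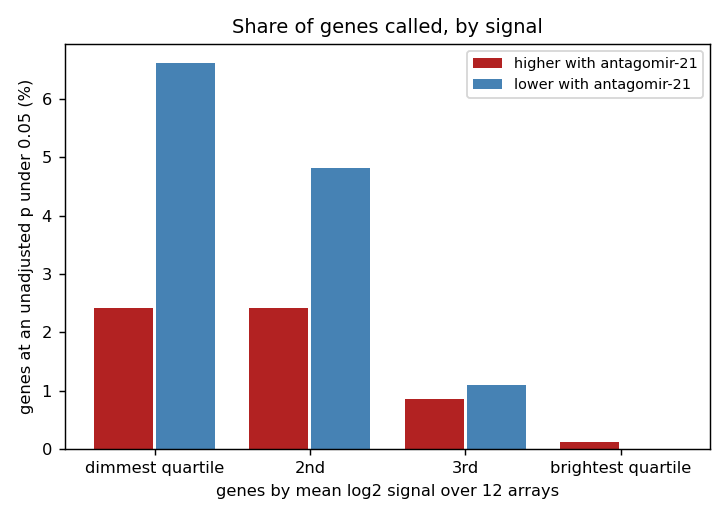
Percentage of genes at an unadjusted p under 0.05 (y axis) in quartiles of genes ordered by mean log2 signal over 12 arrays (x axis), for genes higher (red) and lower (blue) with antagomir-21 than with scramble. The dimmest quartile holds 110 higher and 301 lower genes, and the brightest 5 higher and 0 lower.

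The differences found with GFP exosomes and with miR-21 exosomes were then set side by side. The differences come from separate arrays, since each exosome type had its own 2 antagomir-21 and 2 scramble arrays. Their tests do not, because the fit pools the spread of each gene over all 4 groups. With GFP exosomes, 904 genes passed an unadjusted p under 0.05 (4.97%; 298 higher and 606 lower), and with miR-21 exosomes 867 (4.77%; 386 higher and 481 lower). Of the 18193 genes, 133 passed both tests, of which 69 moved in the same direction (22 higher and 47 lower) and 64 in opposite directions. Among the 298 genes higher with GFP exosomes, 7.4% were also called higher with miR-21 exosomes, against 2.1% of all genes. For the 606 lower genes the shares were 7.8% and 2.6%. Because the pooled spread enters both tests, they are not independent. The shares therefore cannot be read as genes responding with both exosome types. Above the median signal, 2 genes passed both, 1 in the same direction. Over all genes, the differences with GFP and with miR-21 exosomes correlated with r = 0.019 (Spearman's rho = 0.029, a description across 18193 genes that share arrays), and 51.2% of genes had the same sign. When the antagomir-21 array that stood apart was left out, r was 0.109 and 138 genes passed both tests in the same direction, and when its partner replicate was left out r was −0.090. Omission of replicate 1 with GFP exosomes, of either scramble or antagomir-21, left 42 such genes each.

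Genes picked with one exosome type were followed in the other, whose differences had no part in the choice, although its arrays entered the pooled spread. The 298 genes higher with GFP exosomes had a median log2 difference of 3.45 there and −0.39 with miR-21 exosomes, where 42.0% of them were higher, against 47.9% of all genes. For the 606 genes lower with GFP exosomes the medians were −3.66 and −0.25, and 55.6% were lower with miR-21 exosomes, against 52.1% of all genes. In the other direction, the 386 genes higher with miR-21 exosomes had medians of 3.21 there and −0.13 with GFP exosomes, and the 481 lower genes −3.64 and −0.05. The size of the difference in one exosome type was thus not seen again in the other, on either side. The interaction of antagomir-21 with exosome type passed an adjusted p under 0.05 in 0 genes (lowest adjusted p 0.789 from limma; 874 genes at an unadjusted p under 0.05).

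**Figure D2:**
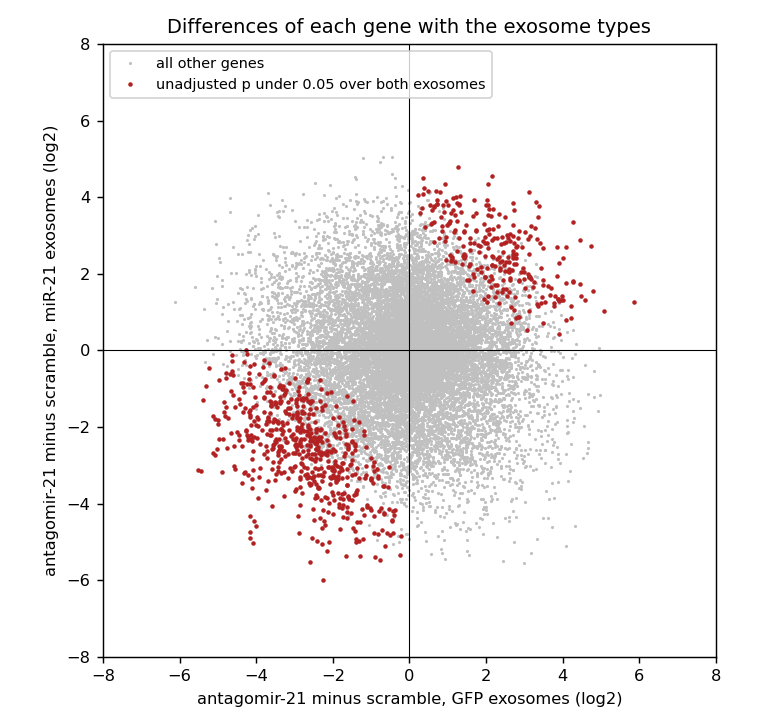
Each point is a gene, with the log2 difference of antagomir-21 minus scramble with GFP exosomes (x axis) and with miR-21 exosomes (y axis); red points passed an unadjusted p under 0.05 in the fit over both. The cloud of 18193 genes has no slope (r = 0.019), and the 834 red genes lie in the quadrants of like sign because the fit averages both axes.

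Because the fit over both exosome types averages both differences, 833 of its 834 genes had the same sign in each, which is a property of the choice and not a finding. The genes described next were ranked by the smallest p of that fit among genes without overlap, so their differences are large by choice. For most of them the lower transfection was near or below the 5th percentile of the olfactory receptors (5.06) and the higher one near their 95th (8.27), so the differences are of deposited values, not measured folds over a known background.

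Genes higher with antagomir-21 were led by *Gm26744* (gene ID 105246086), a predicted gene. Its log2 signal was 8.30, 8.83, 8.17 and 7.35 with antagomir-21 and 4.35, 4.22, 4.60 and 4.22 with scramble. All 4 antagomir-21 arrays lay above the scramble arrays, by the rule that chose the gene, and the log2 difference was 3.82 (SE 0.62, adjusted p = 0.586 from limma). *Xrcc1* (gene ID 22594), which encodes a scaffold of DNA single-strand break repair, had 8.79, 8.19, 8.99 and 8.27 with antagomir-21 and 4.37, 3.70, 6.50 and 5.0 with scramble (log2 difference 3.67, SE 0.70, adjusted p = 0.705). *Gnai1* (gene ID 14677), an inhibitory G protein subunit, had 8.42, 9.59, 8.90 and 9.59 with antagomir-21, against 5.21, 6.10, 6.37 and 5.19 with scramble (log2 difference 3.41, SE 0.67, adjusted p = 0.705). It was the only one of these 8 genes above the median signal, and its 2 other probe sets also had higher means with antagomir-21, by 0.66 and 1.54.

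The other 5 were *Rtn1*, an endoplasmic reticulum protein best known from neurons (3.57, SE 0.71), *Ypel4* (3.08, SE 0.67), *Afm*, the plasma protein afamin of the liver (3.0, SE 0.65), *1700026J12Rik* (2.95, SE 0.65) and *Rcc1*, the exchange factor of the Ran GTPase (2.88, SE 0.63). Each had an adjusted p of 0.705. Their antagomir-21 arrays lay between 7.51 and 9.22 and their scramble arrays between 4.34 and 6.49. The second probe set of *Afm* had a difference of −0.22, opposite to the first.

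Among the genes lower with antagomir-21, *Rex1bd* (gene ID 66462) had the smallest p. It was at 3.52, 3.94, 4.96 and 3.43 with antagomir-21 and 8.26, 7.49, 9.31 and 8.58 with scramble, which is a log2 difference of −4.45 (SE 0.66, adjusted p = 0.586). *Car4* (gene ID 12351), a carbonic anhydrase anchored in the cell membrane, had 3.33, 3.72, 4.08 and 3.18 with antagomir-21 and 8.42, 6.80, 9.17 and 8.15 with scramble. Its log2 difference was −4.56 (SE 0.69, adjusted p = 0.586), and its second probe set gave −2.73. *Lrrc26* (gene ID 227618), an auxiliary subunit of large-conductance potassium channels, was at 3.55, 3.51, 3.27 and 5.34 with antagomir-21 and 8.02, 7.37, 8.64 and 9.79 with scramble (log2 difference −4.54, SE 0.72, adjusted p = 0.586), and the difference was −4.88 without the array that stood apart.

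Next in the same direction came *Ankrd34a* (−4.29, SE 0.68, adjusted p = 0.586), the endothelial growth factor-like gene *Egfl7* (−3.92, SE 0.74), *Capza3*, an actin-capping subunit of sperm (−3.83, SE 0.67), the serine protease *Prss28* (−3.79, SE 0.67) and *Shroom4*, which binds actin (−3.74, SE 0.71), the last 4 with an adjusted p of 0.705. Antagomir-21 arrays of these 5 genes lay between 3.22 and 6.64, and scramble arrays between 7.05 and 9.97. Of the 3 other probe sets of *Egfl7*, 2 were lower and 1 higher with antagomir-21 (−1.08 to 1.07).

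Set beside the lipofectamine arrays, the 16 genes did not share one order. For *Gnai1*, the 4 lipofectamine arrays lay at 8.64, 8.97, 9.83 and 9.19, in the span of antagomir-21 or just above it, and scramble was apart from both. For *Gm26744* they lay at 3.88, 6.57, 4.39 and 3.60, near scramble. *Egfl7* and *Rex1bd* with lipofectamine (8.80 to 9.55 and 6.39 to 9.71) were near scramble, and *Lrrc26* (3.60 to 5.98) was near antagomir-21. *Xrcc1*, *Rtn1* and *Rcc1* had lipofectamine arrays on both sides (3.89 to 8.69, 3.93 to 8.65 and 4.68 to 9.61).

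**Figure D3:**
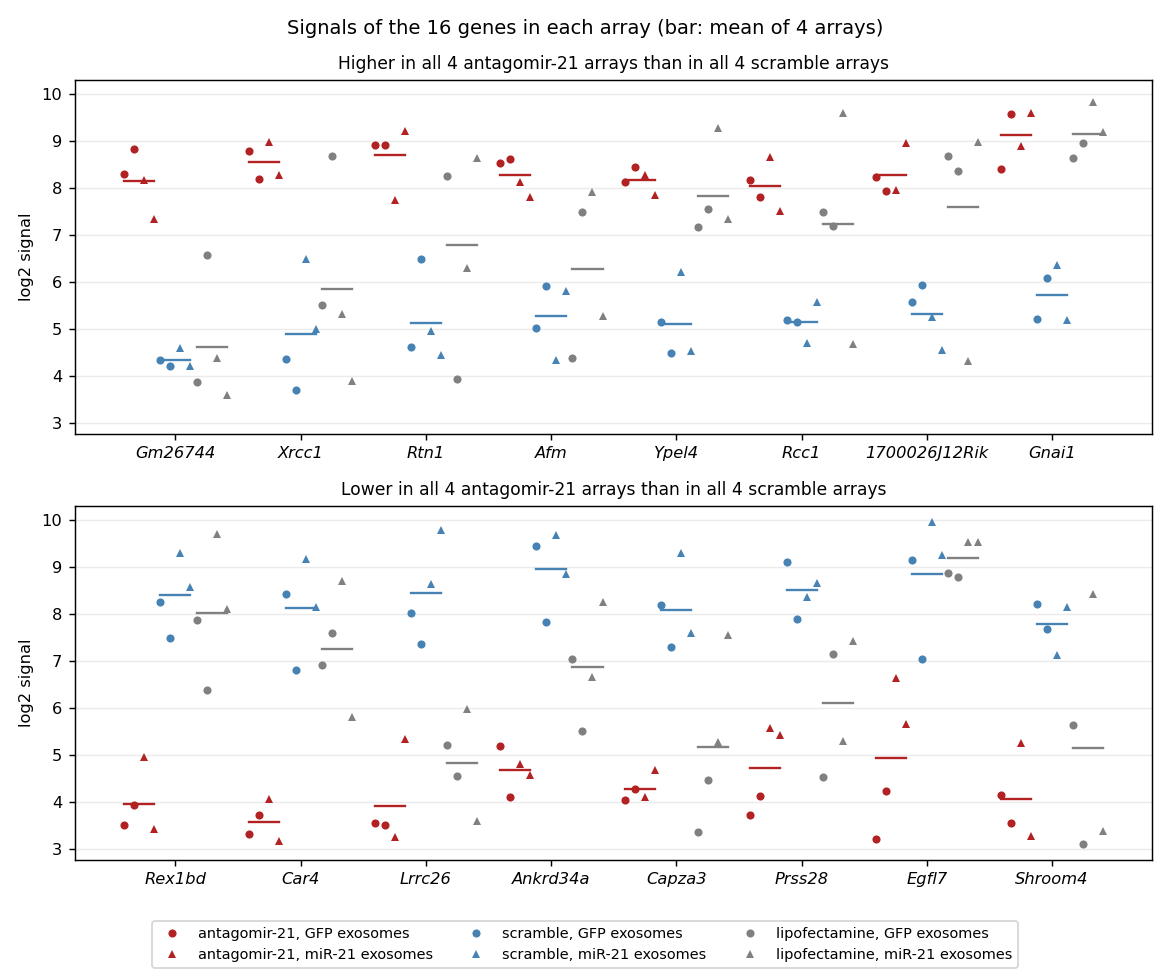
Log2 signal (y axis) of 16 genes (x axis) in each array with antagomir-21 (red), scramble (blue) and lipofectamine (gray), as circles for GFP and triangles for miR-21 exosomes, with a bar at the mean of 4 arrays. Antagomir-21 and scramble arrays do not overlap for any of the 16, by the rule that chose them, while lipofectamine arrays lie on either side, as for *Gnai1* (8.64 to 9.83) and *Gm26744* (3.60 to 6.57).

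Genes above the median signal are less affected by the noise of dim ones, so the same rule was applied to them. Higher with antagomir-21, after *Gnai1*, was *Rwdd2a*, at 9.57, 8.59, 9.56 and 9.36 with antagomir-21 and 7.51, 8.22, 4.90 and 6.0 with scramble (log2 fold change 2.61, SE 0.79, adjusted p = 0.823). *Plpp3*, a lipid phosphate phosphatase, was at 9.64, 9.05, 9.88 and 8.82 with antagomir-21 and 6.25, 6.08, 6.22 and 8.76 with scramble. Its log2 fold change was 2.52 (SE 0.77, adjusted p = 0.823), the other probe set gave 1.55, and the groups were separated by no more than the gap between 8.82 and 8.76. Other members were *Pgpep1*, a peptidase of N-terminal pyroglutamate (2.82), *Ctns*, the lysosomal cystine exporter (2.30), *Amer1*, a regulator of Wnt signaling (2.28), *Cebpzos* (2.26), *Tmem39b* (2.09), *Tsga10* (1.99), *Zc3h10* (1.96), *Osbpl7*, an oxysterol-binding protein homolog (1.94), and the secreted lectin gene *Lgals9* (1.71). Their adjusted p-values were 0.87 to 1. For *Ctns* and *Amer1* the difference was mainly with miR-21 exosomes, at 4.23 and 3.83, against 0.37 and 0.73 with GFP exosomes.

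Lower with antagomir-21 among these brighter genes was *Pecr*, a peroxisomal enoyl-CoA reductase, at 5.98, 6.98, 5.07 and 8.14 with antagomir-21 and 9.77, 9.12, 9.94 and 8.17 with scramble (log2 fold change −2.71, SE 0.85, adjusted p = 0.861). *Samd14* had 5.95, 7.39, 6.11 and 8.34 with antagomir-21 and 9.57, 8.47, 9.40 and 9.75 with scramble (−2.35, SE 0.75, adjusted p = 0.87). The others were *Dennd5b* (−3.22), *Bbs2*, a subunit of the ciliary BBSome (−2.84), *Zfp595* (−2.68), *4930402F11Rik* (−2.37), *Dusp5*, a phosphatase of ERK (−2.34), *Ucma* (−2.32), *Proser1* (−2.08), the ephrin receptor *Epha3* (−2.0), the atypical cadherin *Fat4* (−1.98) and *Gm4349* (−1.82), with adjusted p-values of 0.894 to 1. The genes of this list with a single further probe set were *Pecr*, *Ucma*, *Zfp595* and *Fat4*, and in each it was lower too, with log2 differences of −1.09 to −0.62. Over all 77 genes without overlap above the median signal that had a second probe set, it shared the sign of the first in 37 (48.1%), and its median was −0.33 for those higher and −0.27 for those lower on the first.

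Other probe sets gave a further reading of each gene from the same RNA. Of 9010 genes with more than 1 probe set, the second brightest had the sign of the brightest in 52.2%. Among the 287 such genes called at an unadjusted p under 0.05 it was 54.4%, and among the 152 without overlap 51.3%. For called genes higher on the brightest probe set, the median difference of the second was −0.14, and for those lower it was −0.27. Agreement between probe sets of the called genes was therefore close to that of all genes, and *Gnai1*, *Plpp3* and *Car4* were among those that agreed.

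Targets of miR-21 reported in earlier work were looked at as a list, from general knowledge of the microRNA and not from a search of sequences. Of the 46 genes 43 were measured, with 25 higher and 18 lower with antagomir-21. Their median log2 difference was 0.11, beside −0.004 for all genes and 0.11 for all genes above the median signal. With GFP and miR-21 exosomes the medians were 0.09 and −0.02, and 11 targets were higher and 9 lower with both. None passed at an unadjusted p under 0.05 in limma's fit, where 4.58% of all genes did, and none was without overlap. The median signal of the targets was 9.13, in the quartile below the brightest. In that quartile 1.96% of genes passed, and in the brightest 0.11%, so the absence of calls is not read as a result about the targets. After quantile normalization the median was −0.02, and with the mean of all probe sets −0.31.

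*Pdcd4*, an inhibitor of translation and a long-known target of miR-21, was at 12.90, 12.97, 12.73 and 12.65 with antagomir-21 and 12.22, 13.26, 11.70 and 12.56 with scramble. The groups overlap, and the log2 fold change was 0.38 (SE 0.62). *Spry2*, a brake on receptor tyrosine kinase signaling, was at 10.69, 10.46, 10.12 and 11.60 with antagomir-21 and 10.03, 11.25, 10.77 and 10.14 with scramble (0.17, SE 0.67). The smallest p of the list was that of *Tgfbi*, a secreted matrix protein and also a gene induced by TGF-β. It had 11.14, 11.26, 11.29 and 9.51 with antagomir-21 and 9.30, 10.46, 9.07 and 9.11 with scramble, which differ by 1.32 log2 units (SE 0.68, adjusted p = 1). The difference was 1.32 with GFP exosomes and 1.31 with miR-21 exosomes, 3 of 3 other probe sets had the same sign (0.10 to 1.94), and the array that overlapped with scramble was antagomir-21 with miR-21 exosomes replicate 2. Without that array the difference was 1.67, at an unadjusted p of 0.0364 and an adjusted p of 0.711 in limma's fit, and for *Ppara*, described next, it was −2.89 (0.00823 and 0.593). Next were *Skp2* (−1.57, SE 0.85) and *Fbxo11* (1.33, SE 0.72), both subunits of ubiquitin ligases, the nuclear receptor *Ppara* (−1.88, SE 1.04) and the cell cycle phosphatase *Cdc25a* (−1.57, SE 0.89). *Bmpr2*, a receptor of bone morphogenetic proteins, had 0.21 (SE 0.65).

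TGF-β signals through a type 2 receptor that binds the ligand and a type 1 receptor that phosphorylates SMAD2 and SMAD3, which enter the nucleus with SMAD4. The pathway restrains inflammatory activation of macrophages, and the study asked whether miR-21 acts on it. *Tgfb1*, which encodes the ligand, had signals of 9.23, 9.10, 10.27 and 8.68 with antagomir-21 and 5.38, 9.24, 9.09 and 4.47 with scramble. Scramble arrays lay both inside and below the span of antagomir-21, the log2 fold change was 2.28 (SE 1.19, adjusted p = 1), and the second probe set gave 0.17. With GFP exosomes the difference was 1.85 and with miR-21 exosomes 2.70. *Inhbb*, an activin subunit, was at 4.55, 5.73, 7.09 and 3.28 with antagomir-21 and 7.16, 8.16, 9.41 and 9.23 with scramble, without overlap (−3.33, SE 0.93, adjusted p = 0.783), but its second probe set gave 0.47. Without the array that stood apart the difference of *Inhbb* was −2.41. *Nrros*, which anchors latent TGF-β on macrophages, had 1.13 (SE 0.81), and *Itgb8*, an integrin subunit that activates it, −1.88 (SE 0.97), with −3.96 for GFP and 0.20 for miR-21 exosomes. Of 17 ligand and activation genes, 9 were higher and 8 lower. *Inhbb* alone was at an unadjusted p under 0.05, close to the 4.58% of all genes.

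The mean over 13 receptors was 8.80 to 9.23 on the antagomir-21 arrays and 9.24 to 9.43 on the scramble arrays, and 9.40 to 9.90 with lipofectamine. It was lower on every antagomir-21 array than on any scramble array, which held for 1 of the 31 lists, although the median difference over the 13 genes was 0.14, with 7 higher and 6 lower. None of them passed an unadjusted p under 0.05. Their median signal (9.19) lay in the quartile below the brightest, where 1.96% of genes passed. *Tgfbr2* had 12.18, 11.81, 12.56 and 10.34 with antagomir-21 and 10.98, 12.06, 10.04 and 12.11 with scramble (log2 fold change 0.42, SE 0.79, adjusted p = 1). *Tgfbr1* had 11.24, 10.93, 11 and 9.30 with antagomir-21 and 10.03, 10.82, 8.78 and 9.89 with scramble (0.74, SE 0.68, adjusted p = 1). In each, the lowest antagomir-21 array was replicate 2 with miR-21 exosomes. Without it, and with all scramble arrays kept, the differences were 0.88 for *Tgfbr2* and 1.06 for *Tgfbr1*. Their other probe sets disagreed, from −1.04 to 1.76 for *Tgfbr2* and from −1.40 to 0.54 for *Tgfbr1*. The coreceptor *Tgfbr3* had 0.14 (SE 0.75), *Nfya*, a transcription factor that acts on *Tgfbr2*, 0.83 (SE 0.99), the activin receptor *Acvr2b* −2.31 (SE 1.08) and endoglin, *Eng*, −2.29 (SE 1.21).

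Signal transducers split in the same way, with 6 of 13 Smad and Smurf genes higher and 7 lower. *Smad6*, an inhibitor of the pathway, had the only unadjusted p under 0.05 among them (4.58% of all genes and 9.04% of the dimmest quartile passed), at 4.07, 3.94, 8.05 and 3.17 with antagomir-21 and 7.71, 5.90, 9.62 and 7.21 with scramble (−2.80, SE 1.11, adjusted p = 1). The groups overlap, and the gene was dimmer than most. Without the array that stood apart its difference shrank to −1.83. *Smad2* had −1.47 (SE 0.97), *Smad3* 0.52 (SE 0.92), *Smad4* 0.06 (SE 0.64), *Smad5* −1.43 (SE 0.75), the inhibitory *Smad7* −0.12 (SE 0.66) and the ubiquitin ligase *Smurf2* −0.03 (SE 0.63). Among 17 genes that TGF-β is known to induce, 10 were higher and 7 lower (median 0.13). *Klf10*, an early response gene, was at 11.46, 11.36, 11.52 and 10.48 with antagomir-21 and 8.18, 11.44, 9.51 and 10.22 with scramble (1.37, SE 0.82; 1.62 without the array that stood apart). *Cdkn1a*, which encodes the cell cycle inhibitor p21, had 10.65, 10.22, 10.51 and 8.87 with antagomir-21 and 4.44, 9.75, 5.46 and 10.06 with scramble (2.63, SE 1.35), and *Acta2*, smooth muscle actin, −2.60 (SE 1.26).

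Of 27 proinflammatory genes 11 were higher and 16 lower, with 4 higher and 10 lower with both exosome types. Their median was −0.49 with GFP exosomes and −0.58 with miR-21 exosomes, but −0.02 for the differences averaged over both. None passed an unadjusted p under 0.05. The median signal of this list (8.58) lay in the quartile below the brightest, where 1.96% of genes passed. *Tnf* was at 8.23, 6.21, 8.93 and 4.78 with antagomir-21 and 8.42, 8.15, 8.93 and 9.15 with scramble (−1.63, SE 0.98, adjusted p = 1), and the groups overlap between 8.15 and 8.93. Without the array that stood apart the difference of *Tnf* was −0.69. *Il6* had 8.05, 7.92, 3.67 and 8.09 with antagomir-21 and 7.65, 3.11, 8.18 and 8.69 with scramble, 1 array in each transfection far below the others (0.02, SE 1.48). The chemokine *Cxcl11* was at 8.96, 6.49, 8.21 and 8.92 with antagomir-21 and 10.10, 9.03, 10.23 and 9.56 with scramble, without overlap (−1.58, SE 0.75, adjusted p = 1), and the second probe set gave −1.45. Others were the TNF receptor family member *Tnfrsf19* (−2.27, SE 1.26, with both other probe sets lower), *Il12b* (−1.16, SE 0.69), the chemokine receptor *Ccr2* (−1.16, SE 0.96), *Nos2*, which encodes inducible nitric oxide synthase (1.37, SE 0.98), and the NF-κB subunit *Rela* (−1.33, SE 0.84).

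Alternative activation genes were higher in 15 of 23 (median 0.27), 7 of them with both exosome types. *Mrc1*, which encodes the mannose receptor CD206, was at 12.26, 11.90, 12.34 and 11.22 with antagomir-21 and 10.84, 11.93, 10.32 and 11.55 with scramble (0.77, SE 0.67, adjusted p = 1). *Arg1*, arginase, had 12.38, 12.54, 12.31 and 11.28 with antagomir-21 and 11.88, 12.14, 10.70 and 12.39 with scramble (0.35, SE 0.67). The chemokine *Ccl22* had the only unadjusted p under 0.05 in this list, a share close to the 4.58% of all genes. It had 7.97, 9.33, 7.54 and 5.24 with antagomir-21 and 4.43, 7.05, 4.70 and 4.0 with scramble (2.47, SE 0.87, adjusted p = 0.951). The groups overlap, and most of these signals lay below the 95th percentile of the olfactory receptors (8.27). Without the array that stood apart the difference of *Ccl22* was 3.02. *Chil3* had 0.48 (SE 0.87), *Il10* 0.92 (SE 1.18), the interleukin-1 receptor antagonist *Il1rn* 1.96 (SE 1.07) and the scavenger receptor *Cd163* −1.42 (SE 0.74).

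Oligonucleotides can set off sensors of foreign nucleic acid, and both transfections delivered one. Interferon-stimulated genes were higher in 12 of 29 with antagomir-21 (median −0.09), and nucleic acid sensors in 13 of 19 (median 0.31). *Ifit1*, which binds foreign RNA, had 9.06, 8.97, 9.03 and 9.38 with antagomir-21 and 4.70, 7.38, 8.66 and 5.64 with scramble, without overlap (2.51, SE 0.90, adjusted p = 0.951). With lipofectamine it was at 8.84, 8.39, 4.58 and 9.19. *Adar*, an RNA-editing enzyme, had 1.55 (SE 1.02). Of 24 NF-κB and Toll-like receptor genes 12 were higher and 12 lower, among them *Relb*, an NF-κB subunit, at 8.62, 8.80, 7.79 and 7.70 with antagomir-21 and 5.74, 7.63, 7.4 and 5.96 with scramble (1.54, SE 0.72), and the endotoxin coreceptor *Cd14* (1.21, SE 0.78). *Ago2*, the slicing Argonaute of the silencing complex, had −1.43 (SE 1.02), and 10 of 18 genes of microRNA processing and silencing were higher (median 0.08).

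**Figure D4:**
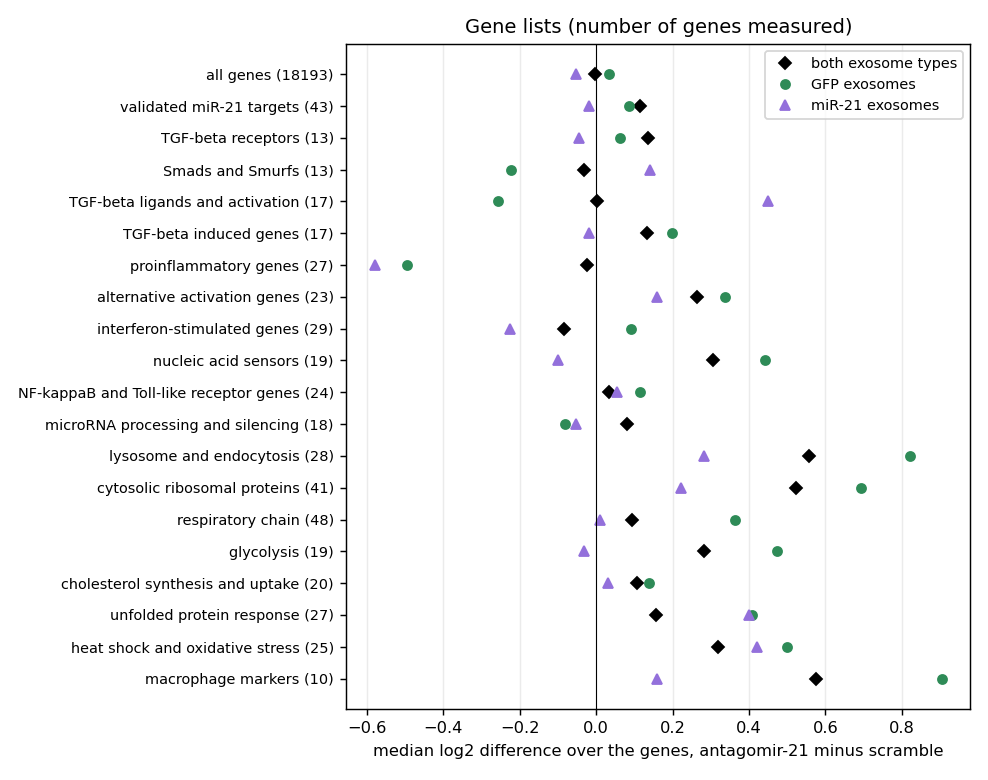
Median log2 difference of antagomir-21 minus scramble over the measured genes of each list (x axis; number of genes in brackets), over both exosome types (diamonds), with GFP exosomes (circles) and with miR-21 exosomes (triangles). Lysosome genes (0.56), ribosomal proteins (0.52) and macrophage markers (0.57) have the highest medians over both among the lists plotted, and miR-21 targets lie at 0.11.

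Lysosomal genes and cytosolic ribosomal proteins, which belong to the brightest genes of these cells, were mostly higher with antagomir-21. Of 28 lysosome and endocytosis genes 20 were higher with antagomir-21, 19 of them with both exosome types (median 0.56), and of 41 ribosomal proteins 36 were higher, 24 with both (median 0.52). Over all genes, 51.2% kept one sign with both, and the brightest quartile of genes had a median of 0.17. No member of either list passed at an unadjusted p under 0.05, which 0.11% of the genes in the brightest quartile did. After quantile normalization the medians were 0.26 and 0.30. The lysosome median was 0.98 without the antagomir-21 array that stood apart (miR-21 exosomes, replicate 2), 0.21 without its partner replicate and 0.34 without replicate 1 of scramble and GFP exosomes, and for ribosomal proteins the same omissions gave 0.73, 0.35 and 0.35.

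Array means of the lysosome list were 13.27, 13.30, 13.49 and 11.87 with antagomir-21, against 12.17, 12.89, 12.15 and 12.75 with scramble. Thus 3 antagomir-21 arrays lay above all scramble arrays and 1 below them. *Psap*, the precursor of the saposins, was at 16.36, 16.43, 16.48 and 14.32 with antagomir-21 and 14.08, 16.05, 14.87 and 13.80 with scramble (1.20, SE 0.77; 1.66 without the low array), and the protease *Ctsd* at 15.68, 15.58, 15.77 and 13.39 with antagomir-21 and 12.86, 15.39, 13.78 and 13.37 with scramble (1.26, SE 0.82; 1.78 without it). *Hexa*, a hexosaminidase subunit, had 1.45 (SE 0.79), *Ctsa* 1.24 (SE 0.80) and *Cd68* 1.16 (SE 0.83; 1.74 without it). For ribosomal proteins the array means were 12.96, 13.23, 13.23 and 12.24 with antagomir-21 and 12.36, 12.58, 12.30 and 12.45 with scramble, again with the same array low. *Rps19* was at 12.97, 13.20, 13.12 and 11.68 with antagomir-21 and 11.25, 12.70, 11.79 and 10.21 with scramble (1.25, SE 0.72; 1.51 without it), *Rplp0* had 1.19 (SE 0.64; 1.45 without it) and *Rpl11* 1.14 (SE 0.67). The macrophage genes *Lyz2* (0.78, SE 0.74; 1.305 without it), *Adgre1* (0.49, SE 0.71; 0.98 without it) and *Csf1r* (−0.16, SE 0.73) varied on the same arrays, and their list of 10 markers had a median of 0.57, or 1.03 without the low array, 0.33 without the other antagomir-21 array with miR-21 exosomes and 0.28 without scramble with GFP exosomes replicate 1. The part of these arrays in the list differences was not tested.

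**Figure D5:**
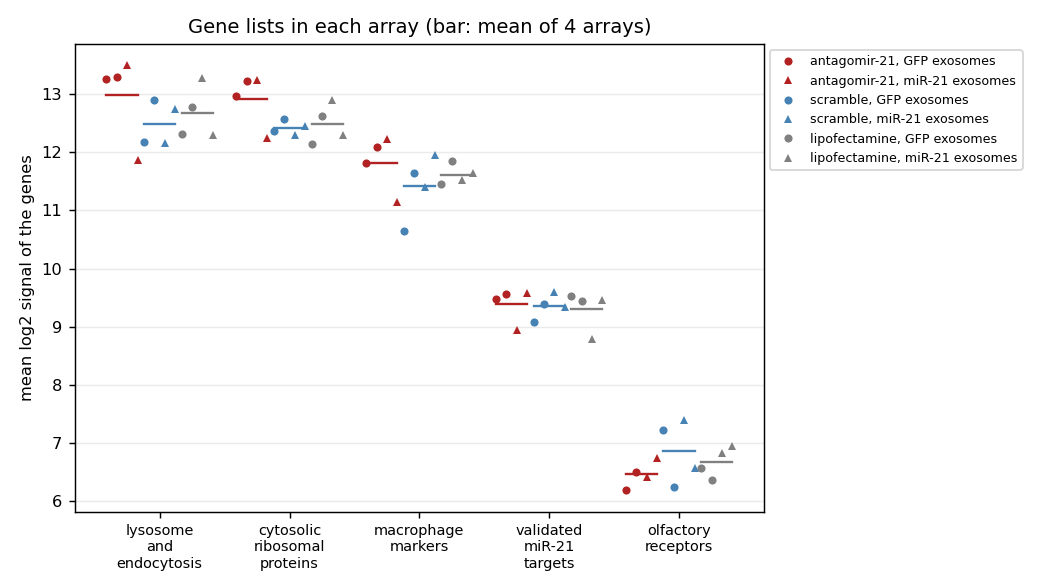
Mean log2 signal of the genes of each list (y axis) in every array with antagomir-21 (red), scramble (blue) and lipofectamine (gray), circles for GFP and triangles for miR-21 exosomes, with a bar at the mean of 4 arrays. For lysosome genes 3 antagomir-21 arrays lie at 13.27 to 13.49 and 1 at 11.87, with scramble at 12.15 to 12.89, and the miR-21 targets and olfactory receptors overlap.

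Metabolic and stress genes included a few with larger differences. *Fdps*, the farnesyl diphosphate synthase of cholesterol synthesis, was at 9.64, 9.55, 9.77 and 9.33 with antagomir-21 and 5.18, 9.69, 5.17 and 4.81 with scramble (log2 fold change 3.36, SE 1.03, adjusted p = 0.823). One scramble array was in the antagomir-21 span and 3 were far below, and the second probe set gave 1.45. *Ndufb10*, a subunit of respiratory complex I, had 11.13, 10.19, 10.71 and 10.16 with antagomir-21 and 6.59, 10.68, 6.25 and 8.30 with scramble (2.59, SE 0.99, adjusted p = 0.983). *Aldoc*, an aldolase of glycolysis, was at 9.63, 8.42, 9.16 and 8.91 with antagomir-21 and 4.22, 8.27, 8.10 and 4.95 with scramble, without overlap (2.65, SE 1.05, adjusted p = 1), though its second probe set gave −0.51. In their lists, 11 of 20 cholesterol genes, 28 of 48 respiratory chain genes and 12 of 19 glycolysis genes were higher (medians 0.11, 0.10 and 0.28). Stress genes were higher in 19 of 27 for the unfolded protein response, with the chaperone *Hspa5* at 1.18 (SE 0.84; 1.74 without the low array), and in 17 of 25 for heat shock and oxidative stress, with heme oxygenase, *Hmox1*, at 1.87 (SE 1.02) and the thioredoxin reductase *Txnrd1* at 1.12 (SE 0.67). None of these stress genes passed at an unadjusted p under 0.05. The median signals of their lists (10.06 and 10.61) lay in the brightest quartile, where 0.11% of genes passed.

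Of 52 markers of other cells, 2 had an unadjusted p under 0.05 (3.85%), a share near the 4.58% of all genes. Apart from B cell and glia markers, the median signals of these lists were 6.53 to 7.85. They lay in the dimmest quartile or the next, where 9.04% and 7.23% of genes passed. *Krt8*, a keratin of mesothelial cells, was at 3.49, 3.86, 4.39 and 8.55 with antagomir-21 and 5.64, 7.38, 9.69 and 9.55 with scramble (−2.99, SE 0.95, adjusted p = 0.863). *Prph*, the peripherin of sensory neurons, was at 4.17, 3.98, 4.23 and 7.30 with antagomir-21 and 9.22, 6.98, 6.26 and 7.71 with scramble (−2.62, SE 1.0, adjusted p = 0.983). In both, the highest antagomir-21 array was replicate 2 with miR-21 exosomes, and without it the differences were −3.79 for *Krt8* and −3.52 for *Prph*. *Ms4a2*, a subunit of the mast cell IgE receptor, had −2.44 (SE 1.10). *Smpd3*, an enzyme of exosome release, had −2.67 (SE 1.08, adjusted p = 1) at 7.45, 3.77, 4.04 and 7.67 with antagomir-21 and 9.21, 7.29, 8.44 and 8.67 with scramble, where exosome and vesicle genes as a list had 10 higher and 9 lower of 19. Genes of the cell cycle and DNA damage were higher in 14 of 30. Those of large peritoneal macrophage identity were higher in 20 of 25 (median 0.42, or 0.83 with GFP and 0.05 with miR-21 exosomes). None of either list passed at an unadjusted p under 0.05. Median signals of these lists (8.51 and 9.92) lay in the quartile below the brightest and in the brightest, where 1.96% and 0.11% of genes passed.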

How the data were processed

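Expression of 12 arrays was deposited by the authors as log2 signals per probe set. The trimmed linear means (2% off each end) were 496 to 499 on every array, as after scaling by a single factor, whereas the methods name RMA with quantile normalization, and array distributions differ. Software names were not given in the sources used here, apart from those methods. The labels give 2 replicates per group, whereas the methods describe 3 biological replicates collected independently. Neither says which animals they came from, so p-values measure the spread between these samples. Of 45037 probe sets, 34945 had 1 gene symbol in the platform annotation, 932 several and 9160 none, and the last 2 kinds were left out. Symbols were updated by gene ID for 34741. No genome build is given for the arrays, so genes carry no coordinates.

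limma 3.58.1 in R 4.3.3 was fitted to 8 arrays with exosome type as a term (5 residual degrees of freedom), and to 4 group means for the difference with each exosome type and the interaction, with Benjamini-Hochberg adjustment over 18193 genes. Lists are described by counts and medians, without a test, and 75 list symbols not matched to a single-symbol probe set are not analysed here. Members, lists and tests were chosen with earlier results of these data known. Named genes were the 8 each way with the smallest p among genes without overlap and with one sign in both exosome types, the 12 each way among genes above the median signal, the macrophage genes of the paper, and up to 5 members of each list by smallest p. *Pdcd4* and the macrophage markers were added to these. Other scalings, sets of arrays, fits, filters and probe-set rules and the omission of each array were tried as alternatives. Precision is limited by 4 arrays per transfection, and the table holds no detection call.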

Additional observations from a re-analysis of the deposited data

Results flagged for a closer look

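Of 216 sets of 4 arrays (the named genes with antagomir-21 and with scramble), 21 had 1 array far from the other 3, where chance gives about 1 in 20. In 14 of the 21 the lone array was antagomir-21 with miR-21 exosomes replicate 2. On it the log2 signals were low for *Tgfbi* (9.51, others 11.14 to 11.29), *Tgfbr1* (9.30, others 10.93 to 11.24), *Klf10* (10.48, others 11.36 to 11.52), *Psap* (14.32, others 16.36 to 16.48), *Ctsd* (13.39, others 15.58 to 15.77), *Rplp0* (11.48, others 12.62 to 12.85), *Rps19* (11.68, others 12.97 to 13.20), *Hspa5* (11.48, others 14.02 to 14.30), *Adgre1* (11.70, others 13.54 to 13.78), *Lyz2* (15.87, others 17.81 to 17.99) and *Cd68* (12.26, others 14.29 to 14.40). The same array was high for *Lrrc26* (5.34, others 3.27 to 3.55), *Ppara* (9.45, others 4.43 to 5.05) and *Prph* (7.30, others 3.98 to 4.23).

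Other lone arrays were scattered. Among antagomir-21 arrays, *Smad2* was at 4.19 on GFP exosomes replicate 2 and *Il6* at 3.67 on miR-21 exosomes replicate 1. Among scramble arrays, *Plpp3* was at 8.76 on miR-21 exosomes replicate 2, *Smad4* at 9.45 on miR-21 exosomes replicate 1, *Nfya* at 6.17 on GFP exosomes replicate 1, and on GFP exosomes replicate 2 *Tgfbi* was at 10.46 and *Fdps* at 9.69.

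In *Smurf2* and *Il6* every antagomir-21 array moved one way from scramble with GFP exosomes and the other way with miR-21 exosomes. No other of the 108 named genes did so. The share of all genes with this pattern was not computed, so it is a description and does not show a dependence on the exosome. The difference with miR-21 exosomes minus that with GFP exosomes was 1.34 for *Smurf2* and −5.16 for *Il6*, and neither passed limma's interaction test at an adjusted p under 0.05.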

How the results depend on the processing

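With 4 arrays per transfection and a residual SD of 1.78 log2 units for dim genes, small differences were not detectable. For antagomir-21 no gene passed an adjusted p under 0.05 under any of 19 alternatives (11 other settings and 8 arrays left out in turn). The lowest adjusted p was 0.193, from limma's additive fit over 12 arrays. Nor did any gene pass for the interaction with exosome type, in the alternatives that fitted it. At an unadjusted p under 0.05, refitting genes above the median signal alone gave 195 genes (105 higher and 90 lower). In the main fit 94 of the same genes passed (44 higher and 50 lower). Their differences are the same in both fits, and only limma's common spread was estimated anew. The t-test that the methods name for other measurements gave 597 (222 higher and 375 lower), of which 0 remained after Benjamini-Hochberg adjustment. Leaving out arrays gave 677 to 1214 (222 to 392 higher and 379 to 912 lower). The cause of the changes with arrays left out was not tested. Genes without overlap numbered 122 above the median signal and 629 to 1536 with an array left out, where fewer arrays have to be separated. Genes passing both exosome types in the same direction were 45 with a replicate block, 10 with an intensity trend, 3 above the median signal and 42 to 138 with an array left out, and in opposite directions 7, 2 and 53 to 109 for the last 3 of these. The correlation between exosome types ran from −0.090 to 0.109. Replicates of the same number showed no shared deviation across groups (6 correlations of deviations, −0.192 to 0.017). Such correlations cannot tell whether these replicates came from the same animals. With the replicate block 828 genes passed an unadjusted p under 0.05. Median centring moved the median of all genes by 0.12, to 0.113, and its calls were 299 higher and 493 lower.

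Of 1906 log2 fold changes of 108 named genes under the alternatives, 1867 kept their direction and 39 in 14 genes did not. Many of the genes were named for a small p in the main fit, so keeping the direction is partly built into the choice. Quantile normalization gave −0.02 for *Bmpr2*, 0.15 for *Smurf2* and −0.07 for *Il6*, and median centring 0.08 for *Smurf2*. Array weights gave −0.10 for *Spry2*, −0.35 for *Tgfbr3* and 0.11 for *Csf1r*. The mean of all probe sets gave −0.37 for *Spry2*, −0.04 for *Tgfbr1*, −0.03 for *Smad3*, 0.96 for *Smad7*, −0.49 for *Nfya* and 0.79 for *Csf1r*. With arrays left out, the range was −0.17 to 0.46 for *Spry2*, −0.04 to 0.50 for *Bmpr2*, −0.01 to 0.88 for *Tgfbr2*, −0.25 to 0.60 for *Tgfbr3*, −0.41 to 1.01 for *Smad3*, −0.28 to 0.38 for *Smad4*, −0.47 to 0.19 for *Smad7*, −0.26 to 0.19 for *Smurf2*, −0.23 to 1.40 for *Nfya*, −1.40 to 1.42 for *Il6*, −0.15 to 1.07 for *Chil3*, −0.30 to 1.71 for *Il10* and −0.54 to 0.31 for *Csf1r*. Of 540 list medians, 22 moved by more than the spread between arrays.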
